A study of Takifugu obscurus with 9 samples.

Results

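CC chemokine receptors were followed in whole kidney of Takifugu obscurus, the obscure puffer, after an immune challenge with poly(I:C), a double-stranded RNA polymer used to mimic viral infection, and in controls. They were taken from an assembled transcriptome as every feature whose best protein match came from a fish and whose description was a C-C chemokine receptor type, or whose Swiss-Prot name was CCR with a number. A feature is 1 gene-level cluster of the assembly. The rule found 11 of 46444 features, and it used no expression value. The kidneys came from fish labelled as 3 months old, in 3 libraries each: poly(I:C) at 12 h, poly(I:C) at 48 h, and controls at 0 h. Nothing in the labels tells if controls received an injection or if each library came from a fish of its own. No control was sampled at 12 h or 48 h, so the treatment and the time since the start cannot be told apart.

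CC chemokine receptors are membrane proteins that couple to inhibitory G proteins and steer migrating leukocytes along gradients of secreted chemokines. In mammals CCR7 draws naive T cells and maturing dendritic cells into lymphoid tissue along CCL19 and CCL21, CCR3 is the eotaxin receptor of eosinophils, CCR9 takes lymphocytes to the gut and the thymus along CCL25, and CCR4 answers CCL17 and CCL22 on helper and regulatory T cells. The fish kidney filters blood and also makes blood and immune cells, so these receptors can come from leukocytes within it. In whole tissue, fewer cells of a type and less receptor RNA per cell cannot be told apart.

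All 11 features had their best match in Takifugu rubripes, and 10 carried the Pfam family 7tm_1 of rhodopsin-like receptors. There were 9 of more than 1400 nt and 2 fragments shorter than 300 nt. The long ones were 1 CCR7, 3 CCR4-like, 1 CCR2-like, 1 CCR9, 1 CCR9-like and 1 CCR3-like feature, and 1 whose names disagree. That last feature, of 2457 nt, is described as chemokine XC receptor 1-like with a KEGG entry for XCR1, the receptor for XCL1 that in mammals marks cross-presenting dendritic cells, but its Swiss-Prot name is CCR3. It entered by the Swiss-Prot name and is called XCR1-like below. The KEGG entry was CCR4 for 5 features, the 3 CCR4-like, the CCR2-like and the CCR3-like, so the subtype names are matches and not established orthologues. The CCR9 and CCR9-like features belong to 1 assembly component, and reads could have been shared between them. The fragments were a CCR6 match of 230 nt and one of 264 nt described as CCR10, whose Swiss-Prot name and KEGG entry are both CCR7. A feature of 403 nt described as a CCR10 protein, with the Swiss-Prot name CXCR4 and the KEGG entry CCR7, meets neither condition of the rule. It was left among the other receptors.

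Values are taken to be TPM, a transcript level scaled for feature length and library total. The reads assigned per library, estimated from the steps between low values, numbered 25505448 to 33085265. The libraries were uneven. Across features with a mean of 10 TPM or more, the Pearson correlation of control libraries 1 and 2 was 0.985, against 0.857 and 0.864 for control library 3 with each of them. Control library 3 correlated at 0.919 to 0.927 with the 48 h libraries, and it held more T cell, red cell and muscle message than the other controls. The 12 h library 3 lay between 12 h libraries 1 and 2 in 70.6% of features of 10 TPM or more and in 8 of the 11 receptors. The median squared deviation between control libraries 1 and 2 was 1.67 times that of counting alone, against 4.09 to 12.1 times in the other pairs within a group. It was taken over the longer features of 1 transcript with enough estimated reads, 7155 of them for control libraries 1 and 2. The receptor calls below are therefore given with and without these libraries. Fold changes are differences of log2(TPM + 1), which understate the change of low features. Features were called in limma at a p under 0.05 after Benjamini-Hochberg adjustment over 45473 features, and group values are mean ± SD over 3 libraries. As the origin of the replicates is not given, the p-values cover only the spread among these libraries, which may be technical.

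**Figure D1:**
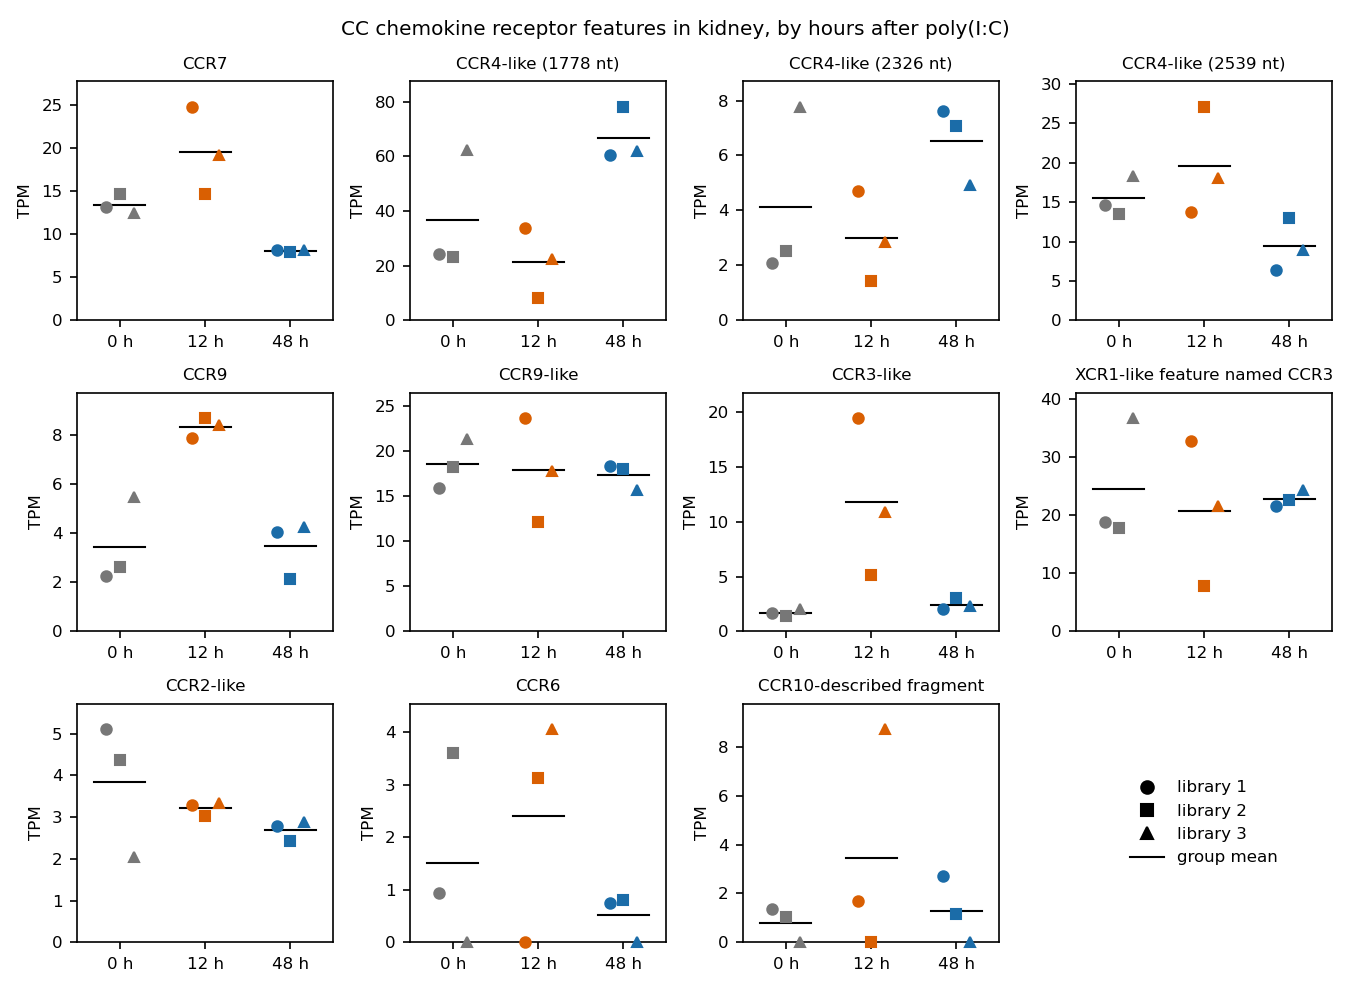
TPM of each CC chemokine receptor feature (vertical axis, from 0) in the 9 libraries, by hours after poly(I:C), with circles, squares and triangles for libraries 1, 2 and 3 and a line for the group mean. CCR3-like stands at 5.13 to 19.5 TPM at 12 h and at or under 3.05 TPM in the other 6 libraries, and CCR7 is tightly grouped at 48 h.

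Summed over the receptors, the level was 124 ± 38.6 TPM at 0 h, 131 ± 37.5 TPM at 12 h and 141 ± 12.7 TPM in the 48 h libraries. The CCR4-like feature of 1778 nt was the most abundant in every group by its mean, with 31.5% of the receptors' mean level over all libraries, and it stood above 93.0% of all features. XCR1-like came next in every group. At 12 h the libraries of each receptor overlapped with those of the next one in the order of means, in all 10 neighbouring pairs. At 0 h they overlapped in 8 of 10 pairs. At 48 h they overlapped in 5 of 10, and the 3 most abundant receptors there, the 1778 nt CCR4-like feature, XCR1-like and CCR9-like, did not overlap with each other. Among the 9 long features the highest library of a group was 1.18 to 3.70 times the lowest at 0 h, 1.10 to 4.22 times at 12 h and 1.03 to 2.02 times at 48 h.

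CCR3-like (ccr3; TRINITY_DN22911_c0_g4, 2000 nt) was the only receptor called at 12 h against 0 h, and it rose. It is 1 of 11, in a comparison where 1.42% of all features tested were called, 0.592% higher and 0.831% lower. Its level was 1.65, 1.40 and 2.0 TPM at 0 h, 19.5, 5.13 and 10.9 at 12 h, and 2.02, 3.05 and 2.29 TPM at 48 h. The 12 h libraries stood above the other 6 without overlap, but the highest of them held 3.79 times the lowest. These levels rest on an estimated 48 to 69 reads per library at 0 h, 183 to 649 at 12 h and 71 to 101 at 48 h. The fold change at 12 h against 0 h was 2.10 on the log2 scale (SE 0.389, limma adjusted p = 0.0377), from a mean of 11.8 ± 7.20 TPM at 12 h and 1.68 ± 0.301 TPM at 0 h. At 48 h against 12 h it was -1.74 with an adjusted p of 0.0565, and at 48 h against 0 h it was 0.36 with an adjusted p of 0.735.

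The direction of the 12 h call held in all 18 alternative fits, with fold changes of 1.68 to 2.56 on the log2 scale, but the call itself held in 5 of them. Those 5 include the filter of 5 TPM in 3 libraries. CCR3-like passed that filter only through the 12 h libraries, where it was high, so that fit adds no support. The call was lost without any 1 of the 3 control libraries (adjusted p 0.0502 to 0.135), without 12 h library 1 (0.0642) or library 3 (0.158), and without any 1 of the 48 h libraries (0.0528 to 0.0622). It held without 12 h library 2, the lowest of its group, at an adjusted p of 0.0250. With control libraries 1 and 2 averaged into 1 sample the adjusted p was 0.134, and with 12 h library 3 also dropped it was 0.393. The call was also lost without the limma trend, with replicate number added to the fit, and with only the compared groups fitted. The adjusted p over all alternatives ranged over 0.0250 to 0.393.

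Markers fixed for eosinophils and mast cells, the cells that carry CCR3 in mammals, were not called with it. Of 11 marker features, 0 passed in limma at 12 h against 0 h, with 3 at an unadjusted p under 0.05, beside 7231 of all 45473 features. The markers' summed level was 2127 to 2331 TPM at 12 h, against 1801 to 2909 TPM at 0 h. Most of that sum was 1 eosinophil peroxidase-like feature whose Swiss-Prot name is Mpo, the neutrophil myeloperoxidase. No feature matched cpa3, the mast cell carboxypeptidase. The part these cells have in the CCR3-like change was not tested. Of the 11 receptors, 2 had libraries that did not overlap between 12 h and 0 h, against 20.9% of all features. The receptors' median fold change was 0.28 on the log2 scale, beside -0.07 over all features.

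CCR9 was the other receptor whose 12 h libraries did not overlap with the controls. The CCR9 feature of 1455 nt had 2.27, 2.63 and 5.48 TPM at 0 h, 7.88, 8.70 and 8.40 at 12 h, and 4.05, 2.12 and 4.27 TPM at 48 h. The 12 h libraries agreed closely with each other and exceeded every other library, while control library 3 stood well above its 2 fellows. The fold change was 1.13 at 12 h against 0 h (limma adjusted p = 0.113) and -1.10 at 48 h against 12 h (adjusted p = 0.0937), so neither passed. Without control library 3 both passed, at 1.44 with an adjusted p of 0.0391 and at -1.10 with 0.0392. Over all alternatives, the sum with CCR9-like included, the adjusted p ranged over 0.0391 to 0.603 for the first and 0.0392 to 0.389 for the second. The CCR9-like feature of 1923 nt was more abundant and flat in its means, with 15.9, 18.2 and 21.4 TPM at 0 h, 23.6, 12.2 and 17.8 at 12 h, and 18.3, 18.0 and 15.7 TPM at 48 h. The groups overlapped in each comparison. Because reads may be shared between these features, their sum was also fitted, and its fold change at 12 h against 0 h was 0.24 with an adjusted p of 0.603.

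CCR7 (ccr7; TRINITY_DN17360_c0_g1, 1981 nt) was the only receptor called at 48 h against 12 h, and it fell. Of all features tested, 1.68% were called there, 1.07% higher and 0.611% lower. It had 13.1, 14.7 and 12.5 TPM at 0 h, 24.8, 14.7 and 19.3 at 12 h, and 8.16, 7.91 and 8.14 TPM at 48 h. All 48 h libraries lay below all others and within 1.03 times of each other. The lowest 12 h library and the highest control met at 14.7 TPM. The estimated reads behind these values were 375 to 549 per library at 0 h, 520 to 818 at 12 h and 260 to 285 at 48 h. Relative to 12 h, CCR7 at 48 h fell by 1.15 on the log2 scale (SE 0.192, limma adjusted p = 0.0248), with 8.07 ± 0.139 TPM at 48 h, against 19.6 ± 5.05 TPM at 12 h. The difference at 48 h against 0 h was -0.67 (SE 0.192, unadjusted p = 0.0060, adjusted p = 0.409), and at 12 h against 0 h it was 0.48 with an adjusted p of 0.255.

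The CCR7 difference between 48 h and 12 h was negative in all 18 alternatives, at -1.33 to -0.98 on the log2 scale, and it passed in 11. It was lost without 12 h library 3 (adjusted p 0.115), and without 48 h library 1 (0.0619), library 2 (0.0983) or library 3 (0.0734). It passed without any 1 of the control libraries, at 0.0192 to 0.0466, and with control libraries 1 and 2 averaged, at 0.0442. With that averaging and 12 h library 3 left out the adjusted p was 0.169. The call was also lost without the limma trend and with replicate number added to the fit. The adjusted p over all alternatives ranged over 0.0151 to 0.169.

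**Figure D2:**
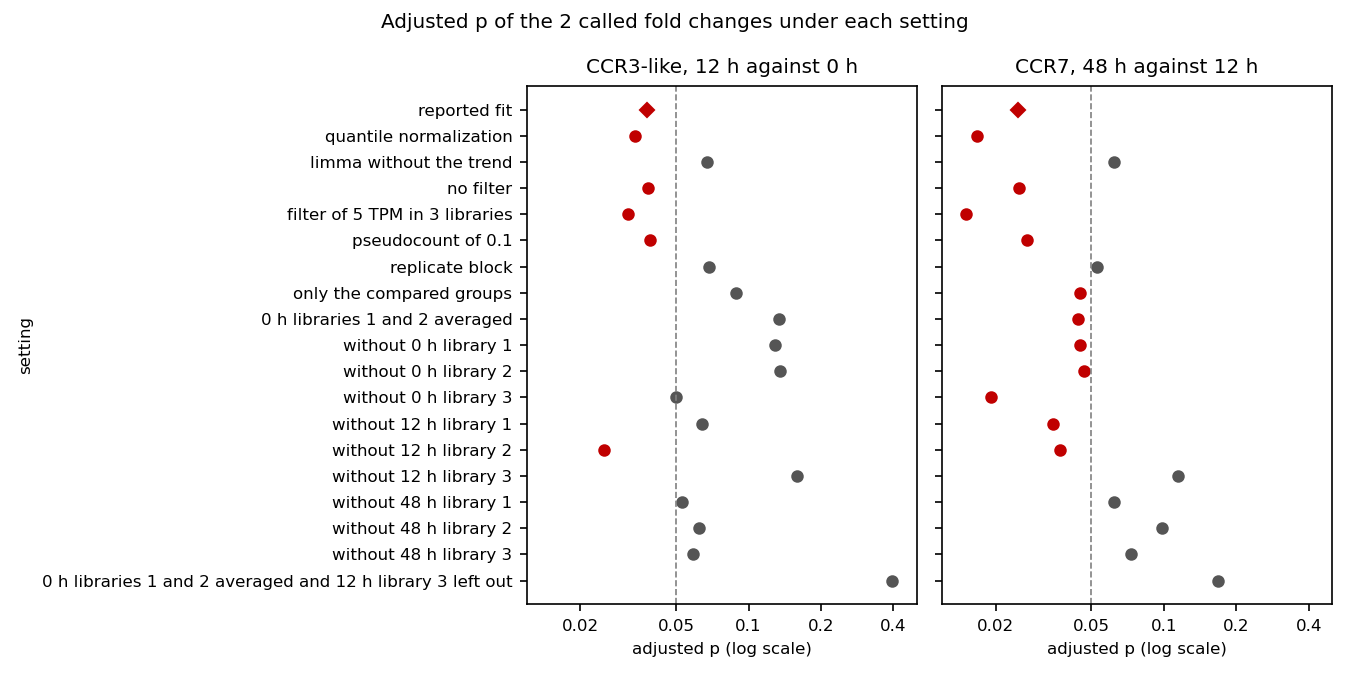
Adjusted p (horizontal axis, log scale) of the CCR3-like change at 12 h against 0 h (left) and the CCR7 change at 48 h against 12 h (right) in the reported fit (diamond) and 18 alternatives (circles), with red for values under 0.05 and a dashed line at 0.05. The CCR3-like call held in 5 alternatives and the CCR7 call in 11. The CCR3-like feature passed the 5 TPM filter only through its 12 h libraries.

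Among the 11 receptors at 48 h against 12 h, 6 had an unadjusted p under 0.05 in limma, against 9768 of all 45473 features. Libraries did not overlap in 7 receptors, against 28.1% of all features. The receptors' median fold change was -0.56 on the log2 scale, beside 0.21 over all features. The receptors' median is the value of the CCR10-described fragment, which rests on an estimated 0 to 15 reads, so it describes no shared fall. The median over all features was 0.04 after quantile normalization. The split of called features was 485 higher and 278 lower as deposited, and 264 higher and 358 lower after quantile normalization. CCR7 was lower at 48 h on both scales. At 48 h against 0 h the tests called 0 receptors, and 0 were called by limma without the trend. At an unadjusted p under 0.05 there were 2 receptors, against 5038 of all 45473 features. Of all features 0.011% passed, 0.0088% higher and 0.0022% lower. In that comparison 3 receptors had libraries that did not overlap, CCR7, CCR3-like and the 2539 nt CCR4-like feature, against 16.2% of all features.

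A minority of T cell markers fell beside CCR7 at 48 h against 12 h. At 48 h against 12 h, 0.611% of all features tested were called lower and 1.07% higher. Of 18 T and NK cell marker features, which cover 12 of 12 listed genes, 16 were tested, and 3 fell and 0 rose. The fold change was positive in 12 of the 16 and negative in 4, with a median of 0.42 on the log2 scale, opposite in sign to that of CCR7. They were 2 features of the T cell transcription factor tcf7, at -1.19 (adjusted p 0.0133) and -1.39 (adjusted p 0.0251), and 1 of the costimulatory receptor cd28, at -1.71 (adjusted p 0.0205). All 3 calls were lost without 12 h library 2 (0.0522 to 0.0817), 12 h library 3 (0.0855 to 0.107) or 48 h library 2 (0.061 to 0.0794). Without 48 h library 1, 1 tcf7 feature (0.0673) and cd28 (0.060) were also lost, and without 48 h library 3 the same tcf7 feature was (0.079). That tcf7 feature (0.0607) and cd28 (0.0519) were lost too without the limma trend. The summed level of the list was 550 to 590 TPM at 48 h, against 470 to 584 TPM at 12 h, and 247, 255 and 1016 TPM in control libraries 1, 2 and 3. The antigen receptor component cd3e, which defines T cells, was present in every library at 15.5 to 147 TPM and was not called. Among 22 features for monocytes, macrophages and dendritic cells 3 rose at 48 h against 12 h (cd209-like, csf1r and mrc1). Over that list the fold change was positive in 16 and negative in 6, with a median of 0.28 on the log2 scale. At 12 h against 0 h, where 0.831% of all features tested were called lower, 2 features of the list were called lower in limma. They were mrc1 at -0.87 (adjusted p 0.0179) and a csf1r feature at -1.77 (adjusted p 0.0156). That csf1r feature has another description than the one called at 48 h. Both calls were lost without control library 1 or 2 or 12 h library 3 (0.0755 to 0.0932), and with control libraries 1 and 2 averaged (0.0804 and 0.0865). That of mrc1 was also lost without 12 h library 2 (0.0659) and without the limma trend (0.0756). The list summed to 1042 to 1318 TPM at 48 h, 793 to 915 TPM at 12 h and 1024 to 1178 TPM at 0 h. Within it cd83, a marker of maturing dendritic cells, stood at 20.5 to 29.1 TPM at 48 h and 25.4 to 58.8 TPM at 12 h and was not called. The calls of cd209-like, csf1r and mrc1 were each lost without 12 h library 3 (0.0814 to 0.132), 48 h library 2 (0.0568 to 0.148) or 48 h library 3 (0.0531 to 0.118). That of csf1r was also lost without control library 1 (0.0668) or 2 (0.0511), 12 h library 2 (0.132) or 48 h library 1 (0.0714), and that of mrc1 without 12 h library 2 (0.055). Without the limma trend csf1r (0.0861) and mrc1 (0.0637) were lost. The csf1r call was also lost after quantile normalization (0.051), with control libraries 1 and 2 averaged (0.0549) and with replicate number added to the fit. The part of these cells in the CCR7 change was not tested.

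**Figure D3:**
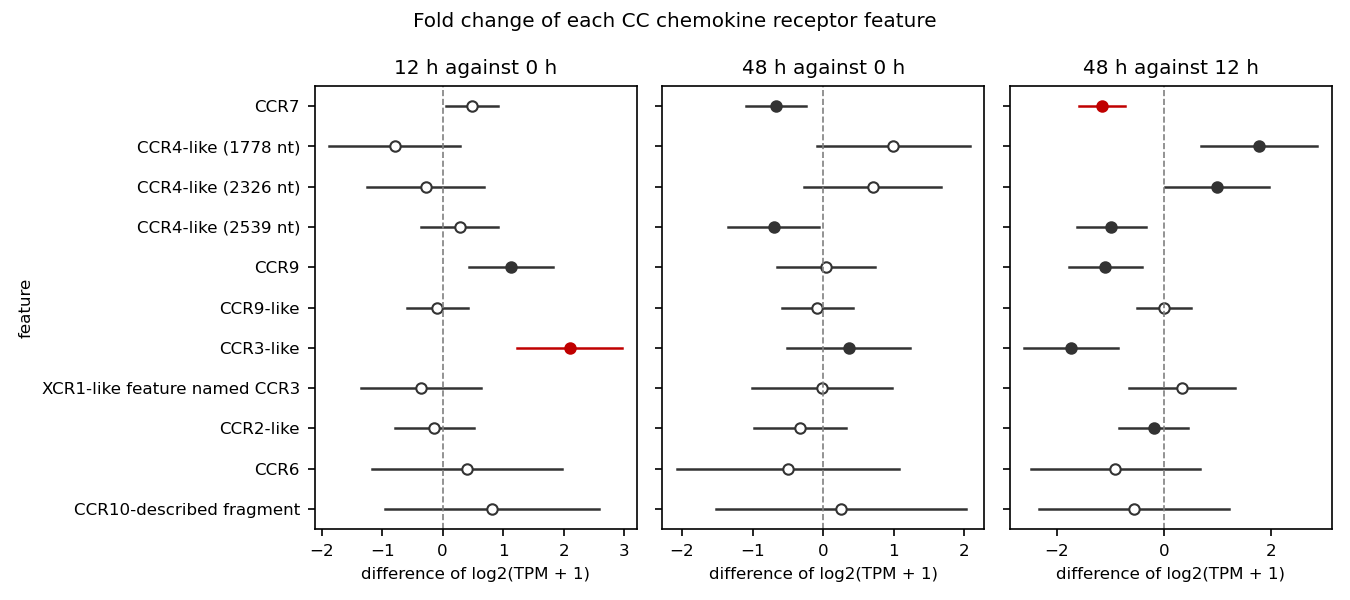
Differences of log2(TPM + 1) with 95% confidence intervals (horizontal axis) for the 11 receptor features in the 3 comparisons. Red marks an adjusted p under 0.05, and filled circles mark groups whose libraries do not overlap. CCR3-like at 12 h against 0 h and CCR7 at 48 h against 12 h are the calls, and the CCR4-like features lie on both sides of 0 at 48 h against 12 h.

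The 3 CCR4-like features did not share a pattern. The one of 1778 nt had 24.4, 23.2 and 62.3 TPM at 0 h, 33.8, 8.26 and 22.4 at 12 h, and 60.5, 78.1 and 62.0 TPM at 48 h. The 48 h libraries were all above the 12 h ones, and control library 3 stood with the 48 h group. The fold change at 48 h against 12 h was 1.78 (SE 0.485, adjusted p = 0.0872). It passed in 2 of 19 alternatives, those that left out control library 3 (0.0455) or 12 h library 1 (0.0489), and the adjusted p ranged over 0.0455 to 0.226. The feature of 2326 nt was scarcer, with 2.10, 2.54 and 7.76 TPM at 0 h, 4.69, 1.44 and 2.85 at 12 h, and 7.63, 7.06 and 4.94 TPM at 48 h. Control library 3 was again the highest control and 12 h library 2 the lowest at 12 h. Its fold change at 48 h against 12 h was 0.98 with an adjusted p of 0.228. The feature of 2539 nt ran the other way, with 14.7, 13.5 and 18.3 TPM at 0 h, 13.8, 27.0 and 18.0 at 12 h, and 6.39, 12.9 and 8.91 TPM at 48 h. Its 48 h libraries lay below all others, at -0.98 against 12 h (adjusted p = 0.10) and -0.70 against 0 h (adjusted p = 0.439). Summed, the 3 features had 82.8 ± 13.2 TPM at 48 h, against 44.1 ± 7.81 TPM at 12 h, a difference of 0.90 with an adjusted p of 0.126.

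Control library 3 stood apart from its fellows in several receptors, and 12 h libraries 1 and 2 differed from each other. Control library 3 was 2.62 times the mean of its 2 fellows for the 1778 nt CCR4-like feature, 3.35 times for the 2326 nt one, 2.24 times for CCR9 and 2.01 times for XCR1-like. It was 0.433 times that mean for CCR2-like. In 12 h library 1 the level was 4.10 times that in 12 h library 2 for the 1778 nt CCR4-like feature, 4.22 times for XCR1-like, 3.79 times for CCR3-like and 3.26 times for the 2326 nt CCR4-like feature, and 0.509 times for the 2539 nt one. XCR1-like had 18.8, 17.8 and 36.7 TPM at 0 h, 32.8, 7.77 and 21.5 at 12 h, and 21.5, 22.5 and 24.3 TPM at 48 h. Its groups overlapped in all 3 comparisons, with adjusted p of 0.693 to 0.990.

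CCR2-like (1716 nt), named for the mammalian monocyte receptor for CCL2, was low throughout. It had 5.11, 4.36 and 2.05 TPM at 0 h, 3.29, 3.04 and 3.35 at 12 h, and 2.78, 2.42 and 2.88 TPM at 48 h. The 48 h libraries lay just below the 12 h ones without overlap, and the difference of -0.20 on the log2 scale had an adjusted p of 0.729. The fragments were near the limit of detection. CCR6, the CCL20 receptor, ranged from 0 to 4.06 TPM on an estimated 0 to 5 reads, and the CCR10-described fragment ranged from 0 to 8.72 TPM on 0 to 15 reads. Each was listed at 0 in 3 libraries, in a table that lists only features exceeding 2 TPM somewhere, and no difference between groups was detectable for them at this depth. All 11 receptors passed the filter of 1 TPM in 3 libraries.

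Of the CC chemokine ligands, 7 features had a fish match, and limma called 0 of them in each comparison. At an unadjusted p under 0.05 there were 1 at 12 h against 0 h, 3 at 48 h against 0 h and 4 at 48 h against 12 h. Over all 45473 features the counts at that level were 7231, 5038 and 9768 in the same order. The most abundant ligand was a feature described as C-C motif chemokine 13-like with a KEGG entry for CCL19, the CCR7 ligand. It had 3439, 3867 and 50.2 TPM at 0 h, 2104, 5425 and 3762 at 12 h, and 83.9, 139 and 100.2 TPM at 48 h. Control library 3 stood with the 48 h libraries and not with its fellows. Its difference at 48 h against 12 h was -5.04 on the log2 scale (SE 1.35, adjusted p = 0.0844). An eotaxin-like feature with a KEGG entry for CCL24, a CCR3 ligand in mammals, had 16.6, 17.1 and 80.2 TPM at 0 h, 22.5, 7.79 and 13.5 at 12 h, and 59.9, 35.2 and 58.6 TPM at 48 h. It was not high at 12 h, where CCR3-like was, and its difference at 12 h against 0 h was -1.04 with an adjusted p of 0.421. At 48 h against 12 h its difference was 1.82 with an adjusted p of 0.118. A feature described as monocyte chemotactic protein 1B-like had 65.0, 272 and 165 TPM at 12 h, against 32.9, 38.0 and 29.9 TPM at 0 h, a difference of 2.07 with an adjusted p of 0.0673. A CCL20 precursor feature stood at 0.97 to 3.52 TPM over the 9 libraries, and a fragment of 248 nt described as C-C motif chemokine 16-like, also with the KEGG entry CCL20, at 0 to 10.07 TPM. A C-C motif chemokine 14-like feature had 381 ± 50.5 TPM at 48 h, against 58.1 ± 43.4 TPM at 12 h (2.98, adjusted p = 0.113). It had 41.4, 47.6 and 597 TPM at 0 h. A C-C motif chemokine 18-like feature had 6.88, 5.37 and 486 TPM at 0 h. At 48 h it had 279 ± 103 TPM, a difference of 3.20 against 0 h (adjusted p = 0.450).

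**Figure D4:**
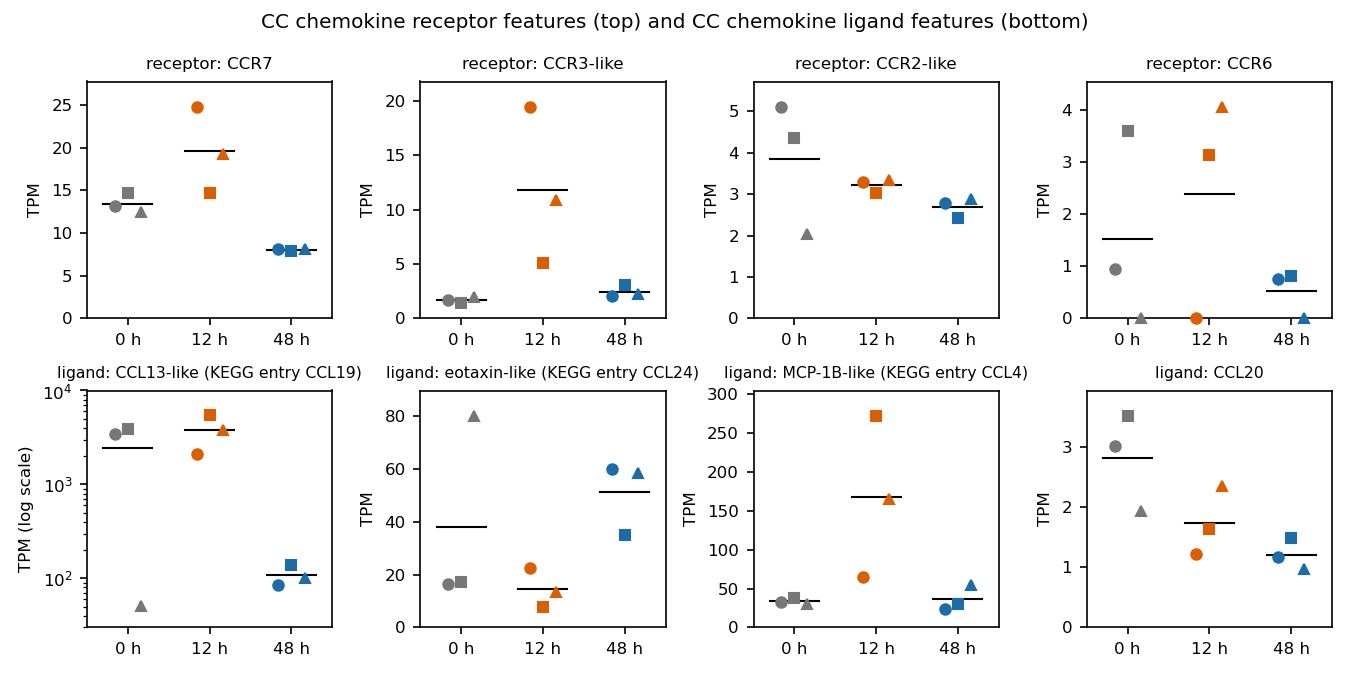
TPM (vertical axis, log scale for the CCL13-like panel) of 4 receptor features (top) and 4 CC chemokine ligand features (bottom) in the 9 libraries, by hours after poly(I:C). Circles, squares and triangles are libraries 1, 2 and 3, and lines are group means. The CCL13-like feature stands at 50.2 TPM in control library 3 and at 3439 and 3867 TPM in the other 2 controls.

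Calls elsewhere in the chemokine system fell on CXC receptors and ligands and on signalling. Together, 72 features of ligands, other receptors, receptor signalling and homing were tested, and 0 rose and 3 fell at 12 h against 0 h, 0 rose and 1 fell at 48 h against 0 h, and 4 rose and 1 fell at 48 h against 12 h. Of all features tested, 1.42%, 0.011% and 1.68% were called in the same order of comparisons. Among 18 other chemokine receptor features, a C-X-C chemokine receptor type 2-like feature, named for the neutrophil receptor for interleukin 8, fell to 7.44, 4.6 and 5.66 TPM at 12 h, against 33.7, 31.4 and 22.3 TPM at 0 h (log2 fold change -2.12, adjusted p = 0.00585). At 48 h it was at 24.6, 37.1 and 31.2 TPM, a rise of 2.21 relative to 12 h (adjusted p = 0.00541). A C-X-C chemokine receptor type 3-like feature rose to 34.9 ± 1.85 TPM at 48 h, against 8.67 ± 5.15 TPM at 12 h (2.04, adjusted p = 0.0222). That call was lost without 12 h library 3 (0.0982) and without 48 h library 1 (0.0607), library 2 (0.0858) or library 3 (0.0689). At 0 h this feature had 22.4 ± 1.58 TPM. Against 0 h its differences were -1.42 at 12 h (adjusted p = 0.0705) and 0.62 at 48 h (adjusted p = 0.503), and neither was called. Other features of both types were not called and lay on the other side of 0 at 48 h against 12 h. An interleukin 8 receptor II feature with the KEGG entry CXCR2 was at -1.03 (adjusted p = 0.127), and a pair of further type 3-like features were at -0.95 (adjusted p = 0.142) and -0.54 (adjusted p = 0.277). The interleukin 8 receptor II feature also went the other way from the type 2-like one at 12 h against 0 h. It had 29.0 ± 13.7 TPM at 12 h, against 14.1 ± 0.583 TPM at 0 h (0.88, adjusted p = 0.240).

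Among 7 CXC ligand features, an interleukin 8 precursor fell at 12 h, to 38.7 ± 6.45 TPM against 189 ± 91.3 TPM at 0 h (-2.12, adjusted p = 0.0406). That call held in 6 of 18 alternatives. It was lost without control library 1 (0.150) or 2 (0.149), without any 1 of the 12 h libraries (0.0848 to 0.152), and without 48 h library 1 (0.0543) or 2 (0.0678). An interleukin-8-like feature fell at 48 h, to 16.0 ± 2.17 TPM against 66.2 ± 8.70 TPM at 0 h (-1.98, adjusted p = 0.00789) and 43.6 ± 6.48 TPM at 12 h (-1.39, adjusted p = 0.0105). The first of these was lost without control library 1 (0.0690), 48 h library 1 (0.0765) or 48 h library 3 (0.0994), and the second without 12 h library 3 (0.0744). Of 36 receptor signalling features, beta-arrestin-2, which uncouples and internalises activated receptors, fell to 2.69, 2.0 and 2.53 TPM at 12 h, against 25.4, 22.4 and 16.2 TPM at 0 h (-2.69, adjusted p = 0.00308), and was 2.42 higher at 48 h than at 12 h (adjusted p = 0.00572). The calls of beta-arrestin-2 and of the type 2-like receptor held in 17 of 18 alternatives in both comparisons. They were lost with control libraries 1 and 2 averaged and 12 h library 3 left out, at adjusted p of 0.0960 and 0.175 at 12 h against 0 h and of 0.0862 and 0.0874 at 48 h against 12 h. Engulfment and cell motility protein 1 (elmo1), which activates Rac with DOCK proteins, rose to 86.0 ± 11.8 TPM at 48 h, against 45.4 ± 7.87 TPM at 12 h (0.91, adjusted p = 0.0446), and that call held in 5 of 18 alternatives. It was lost without control library 1 (0.0684) or 2 (0.0737), 12 h library 2 (0.130) or 3 (0.139), or any 1 of the 48 h libraries (0.0687 to 0.156). At 0 h the called elmo1 feature had 62.5 ± 10.4 TPM. An engulfment and cell motility protein 3 feature with the Swiss-Prot name Elmo1 was at -0.70 at 48 h against 12 h (adjusted p = 0.0747). Scarcer elmo1 features were at 0.66 (adjusted p = 0.274) and 0.63 (adjusted p = 0.253). Of 4 homing and adhesion features 0 were called by limma in any comparison, with 0 at an unadjusted p under 0.05 at 12 h against 0 h, 2 at 48 h against 0 h, and 3 at 48 h against 12 h. Those counts stand beside 7231, 5038 and 9768 of all 45473 features.

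The features most like each receptor in pattern were taken by Pearson correlation of log2(TPM + 1) over the 9 libraries, among 11328 features with a fish match, an informative description and a mean of at least 5 TPM. The correlations describe likeness only, and the 9 libraries share the uneven structure given above. For CCR7 the first 5 were a collagen alpha-1(XII) chain-like feature (r = 0.944), protein tyrosine phosphatase type IVA 1 (0.917), a glutamine synthetase-like feature (0.911), an autophagy-related protein 16-2-like feature (0.910) and a UPF0769 family protein (0.909). For CCR3-like they were formin-like protein 5 (r = 0.972), ETS translocation variant 4 (0.968), T-complex protein 1 subunit zeta (0.951), cytoplasmic cysteine-tRNA ligase (0.951) and endothelial lipase (0.947). For CCR9 the closest was a T-cell surface antigen CD2-like feature (r = 0.974), with 1.40, 2.56 and 5.71 TPM at 0 h, 9.04, 9.34 and 7.51 at 12 h, and 4.46, 2.01 and 3.38 TPM at 48 h. The rest of its first 5, at r of 0.9485 to 0.969, name no cell type. They were eukaryotic translation initiation factor 3 subunit G, a glycolipid transfer protein-like feature, cytoplasmic tRNA 2-thiolation protein 1 and glutaredoxin-3. The 1778 nt CCR4-like feature was closest to tubby-related protein 4 (r = 0.993) and to a scavenger receptor cysteine-rich type 1 protein M130-like feature (0.993), which carries the name of a macrophage marker and ranged from 1.08 TPM in 12 h library 2 to 62.2 TPM at 48 h. A sorting nexin-1-like feature, cytosolic non-specific dipeptidase and a liver phosphorylase b kinase subunit alpha were nearly as close, at r of 0.9906 to 0.9925. XCR1-like was closest to P2X purinoceptor 1 (r = 0.977), and the 2326 nt CCR4-like feature to synaptotagmin-like protein 1 (r = 0.985).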

How the data were processed

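RNA from whole kidney was sequenced in 9 libraries, and groups and replicate numbers came from the labels. The authors deposited 1 table of 46444 features, which by their IDs are gene clusters of a Trinity assembly, each with the authors' own protein, Swiss-Prot, KEGG and Pfam matches. Its values were taken to be TPM: the header names no unit, but the deposited columns total 993873 to 996068. The aligner and the quantifier are not given in the sources used here, and no genome or sequence was used here. Every feature exceeds 2 TPM somewhere, so low features were removed before deposit. The table holds no read counts, and depth was estimated from steps between low values, of which 96.0% to 96.9% lay within 0.1 of a whole read.

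The fit took features of 1 TPM or more in 3 or more libraries. They were analysed with limma 3.58.1 in R 4.3.3 on log2(TPM + 1), with 1 coefficient per group over all 9 libraries, no replicate block, and eBayes with trend and robust options. Tests were two-sided and adjusted over all 45473 features, and the procedure was tested on simulated data. The receptors and the gene lists were chosen with earlier results of these data known. Named are all receptors, every called feature of the chemokine lists, and the 5 features closest in pattern, given whole for the called receptors. The cell type markers, uncalled CXC and XC receptors, uncalled elmo1 features and ligand features shown with values were picked after their values were seen. Alternatives were a pseudocount of 0.1, quantile normalization, limma without the trend, all features kept or only those reaching 5 TPM, the replicate block, the compared groups alone, control libraries 1 and 2 averaged, each library left out, and like features summed. Averaging those controls with 12 h library 3 left out was added after seeing the data.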

Additional observations from a re-analysis of the deposited data

Results flagged for a closer look

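CCR7 differed between the challenge times: its change from 0 h at 48 h minus that at 12 h was -1.15 on the log2 scale, which is the comparison of 48 h with 12 h and passed the test. By the same comparison an interleukin-8-like feature differed by -1.39, a C-X-C chemokine receptor type 2-like feature by 2.21, a C-X-C chemokine receptor type 3-like feature by 2.04, beta-arrestin-2 by 2.42 and engulfment and cell motility protein 1 by 0.91.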

How the results depend on the processing

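The directions of the CCR3-like rise at 12 h and of the CCR7 fall at 48 h against 12 h held in all alternatives, and the calls did not. Called receptors at 12 h against 0 h numbered 1 as reported, 0 without the trend, with the replicate block, with only the compared groups or with control libraries 1 and 2 averaged, and 0 to 1 without 1 library. They numbered 0 throughout at 48 h against 0 h. For 48 h against 12 h they numbered 1 as reported, 2 after quantile normalization or with the 5 TPM filter, and 0 without the trend or with the block. Without 1 library they numbered 0 to 4, with 4 without control library 3. Calls over all features also varied widely among the fits without 1 library, over the range given in the next paragraph. The counts of 0 to 4 are therefore not read as a result about the receptors. With control libraries 1 and 2 averaged and 12 h library 3 left out, an alternative chosen after seeing the data, called receptors numbered 0 in each comparison. The further receptor called with the 5 TPM filter at 48 h against 12 h was CCR3-like. It passed that filter only through its 12 h libraries, so this call adds no support.

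Over all features, 647 calls at 12 h against 0 h became 230 without the trend, 284 with the block, 250 with only the compared groups, 60 with the controls averaged, 5 in the added alternative and 34 to 876 without 1 library. The 5 calls at 48 h against 0 h became 0 without the trend, 3 with a pseudocount of 0.1, 3 with the block, 0 in the added alternative and 0 to 78 without 1 library. The 763 calls at 48 h against 12 h became 326 without the trend, 1364 with the 5 TPM filter, 285 with the block, 429 with the controls averaged, 0 in the added alternative and 29 to 2492 without 1 library. Among other chemokine system features, 3 calls at 12 h against 0 h became 6 with the 5 TPM filter, 0 in the added alternative and 2 to 5 without 1 library. The 1 call at 48 h against 0 h became 0 without the trend, with the block or in the added alternative, and 0 to 3 without 1 library. The 5 calls at 48 h against 12 h became 3 without the trend, 9 with the 5 TPM filter, 0 in the added alternative and 2 to 14 without 1 library.

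Changes of sign occurred only in differences that were not called. Without 1 library at 12 h against 0 h, CCR2-like ranged from -0.44 to 0.063 (0.016 with the controls averaged), XCR1-like from -0.78 to 0.19, CCR6 from -0.12 to 1.14, the CCR10-described fragment from -0.044 to 1.60, the 2326 nt CCR4-like feature from -0.58 to 0.19 and CCR9-like from -0.30 to 0.15. At 48 h against 0 h, CCR9 ranged from -0.15 to 0.34, with -0.033 after quantile normalization and -0.12 with the controls averaged or in the added alternative, XCR1-like from -0.20 to 0.30, the CCR10-described fragment from -0.20 to 0.75 and CCR9-like from -0.18 to 0.019. XCR1-like at 48 h against 12 h ranged from -0.22 to 0.76, the CCR10-described fragment from -1.35 to 0.29 (0.29 in the added alternative) and CCR9-like from -0.23 to 0.22, with -0.17 after quantile normalization. With features of 1 description summed, CCR4-like gave -0.26 at 12 h against 0 h, 0.64 at 48 h against 0 h and 0.90 at 48 h against 12 h, against the sign of the 2539 nt feature, and CCR9 with CCR9-like gave 0.24, -0.059 and -0.30. In the summed fits each feature took the fold change of its sum, so those changes of sign come from the summing. The cause of the other changes of sign was not tested.

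The reported fit did not treat same-numbered libraries as paired, and with 3 libraries a group the correlations below cannot settle whether they were. Same-numbered deviations correlated at -0.22, 0.24 and -0.092 at 12 h against 0 h, and at -0.13, 0.21 and 0.17 at 48 h against 0 h. At 48 h against 12 h they correlated at 0.37, 0.21 and 0.062, all positive but not all over 0.1. Not every library correlated best with its own number. With the block the CCR3-like adjusted p was 0.0687 and that of CCR7 at 48 h against 12 h was 0.0527. With 3 libraries a group and fragments on 0 to 15 reads, smaller differences were not detectable.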
